A study of Mus musculus with 16 samples.

Results

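The c-JunDN peaks described here are the 1284 autosomal regions of the peak list that the authors called from chromatin immunoprecipitation on day 3 of reprogramming. They are every row of that list on chromosomes 1 to 19, taken by position alone, out of 1340 rows, with 35 further rows on chromosome X and 21 on chromosome Y. The cells were OG2 transgenic mouse embryonic fibroblasts (MEF) at passage 2 that had been induced to reprogram with Sox2, Klf4, c-Myc and c-JunDN, a dominant-negative c-Jun. The strains are labelled as a mixture of 129SVJ, C57B6 and CBA, with a CBA share that differs from label to label. The labels give the antibody as c-Jun in one field and as c-JunDN in another. The list used beside it holds 3100 c-Jun peaks, 3095 of them autosomal, from embryonic stem cells (ESC) at passage 5, labelled both OG2 and OG3ES, in which doxycycline had induced c-Jun for 36 h. Each list comes from 1 library, so no difference below has a replicate check and none was tested. Intervals printed with shares and medians are over the peaks of a list, which are not replicates. An ESC input sample of the series was not analysed here.

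c-Jun is a subunit of AP-1, a family of dimeric transcription factors that bind short palindromic DNA sites through a basic leucine zipper. In fibroblasts AP-1 is known for occupying distal enhancers, and its activity is high in the fibroblast state that reprogramming has to leave. Dominant-negative forms of c-Jun generally keep the part that dimerises and binds DNA and lack the part that activates transcription, so such a protein can sit at AP-1 sites without activating them. The series' design text states that the c-JunDN immunoprecipitation was done to find where this protein binds during reprogramming. Positions below are on build mm9 and are counted from 1. Gene positions and sequence of that build were not used here, so no peak is assigned to a gene or to a motif.

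RNA from a separate library of the same factor mixture, also on day 3, was checked for cell identity. All 9 fibroblast markers had over 3 counts there, among them Col1a1, a fibrillar collagen gene, at 653 CPM (counts per 1e6 counts), and Vim, the gene of the mesenchymal filament protein vimentin, at 2590 CPM. None of 5 ESC markers, Nanog among them, had over 3 counts, and 3 were at 0. Of 5 macrophage markers 4 were at 0, and Cd68 had 21 counts. Of 4 endothelial markers 3 had over 3 counts, with Tek highest at 55, and of 3 keratinocyte markers only Krt14 did, at 19. Jun had 1121 counts with c-JunDN and 182 in the library given DR with the same 3 factors, where DR is not explained in the labels. Reads from c-JunDN and from the cell's own Jun gene cannot be told apart. In CPM the level was 5.29-fold higher with c-JunDN (exact 95% interval 4.52 to 6.22, counting error only).

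The autosomal c-JunDN peaks were narrow and most of their scores lay in the low part of the range of the list. The score is the value given to each peak in the authors' list, and its scale is not given in the sources used here. Scores ran from 50.04 to 256.12, with a median of 61.41 and quartiles of 56.56 and 68.40. A score below 60 was given to 519 peaks (40.4%), while 69 peaks (5.37%) reached 100, 20 reached 150 and 6 reached 200. Scores repeated: the 1284 peaks had 804 distinct values, and 61.19, the most frequent, occurred 15 times. The c-Jun list of ESC started at nearly the same value, 50.01, and had a median of 66.83 and an upper quartile of 85.72. The lists were called separately, so the scores describe each list on its own.

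Widths separated the 2 lists more plainly than scores did. The median c-JunDN peak was 143 bp wide, with quartiles of 129 and 151 bp. The median c-Jun peak of ESC was 419 bp wide, with quartiles of 368 and 482 bp. Of the c-JunDN peaks, 97.9% were narrower than the lower quartile of the c-Jun widths, and 2 of 3095 c-Jun peaks were narrower than the median c-JunDN peak. Per the labels' protocols, which describe the ESC experiment, the chromatin was sheared to fragments of 100 to 500 bp. Below that range lay 58 c-JunDN peaks (4.52%) and none of the c-Jun peaks. Together the c-JunDN peaks covered 202717 bp and the c-Jun peaks 1347524 bp of the autosomes.

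**Figure D1:**
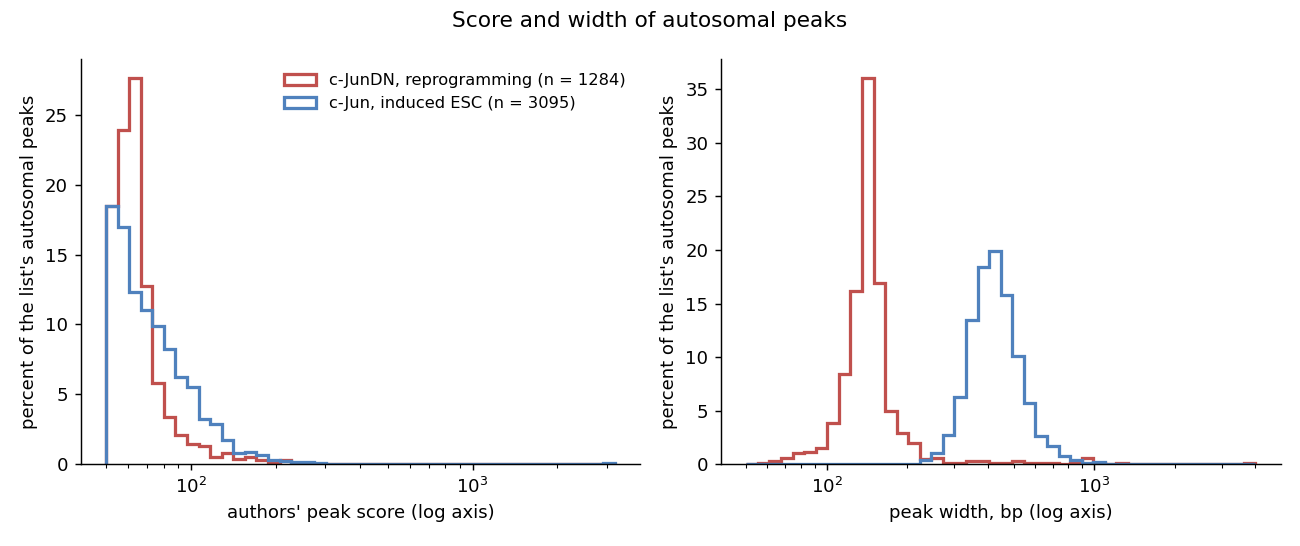
Distribution of the authors' score (left) and of the width in bp (right) of autosomal peaks, each as a percentage of its own list on a log axis, for 1284 c-JunDN peaks (red) and 3095 c-Jun peaks of induced ESC (blue). The widths form 2 separate humps, with medians of 143 and 419 bp, while the scores of both lists start near 50 and have medians of 61.41 and 66.83.

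Among the c-JunDN peaks, score and width were related in opposite ways at the narrow and at the wide end. The 645 peaks of 125 to 149 bp had the lowest median score, 59.38. The median rose to 65.62 at 100 to 124 bp and to 86.28 under 100 bp, and on the other side to 71.34 at 175 to 199 bp, 80.85 at 200 to 299 bp and 84.62 at 300 bp or more. Clustered peaks were common at both ends: 28 of 58 peaks under 100 bp (48.3%) and 31 of 34 at 300 bp or more (91.2%). At 125 to 149 bp, 22 of 645 peaks (3.41%) were clustered. The part of clustering in the relation of score and width was not tested. Over all peaks the rank correlation of score and width was 0.03 (Spearman, n = 1284). It was -0.36 over the 244 peaks under 125 bp and 0.29 over the 1040 wider ones, against 0.53 in the c-Jun list (n = 3095). These correlations are across peaks of 1 library, which share its depth and its caller. Of the 69 peaks that scored 100 or more, 22 (31.9%) were under 100 bp wide. Equal scores recurred among the narrow peaks: 5 of the 58 had exactly 113.13.

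**Figure D2:**
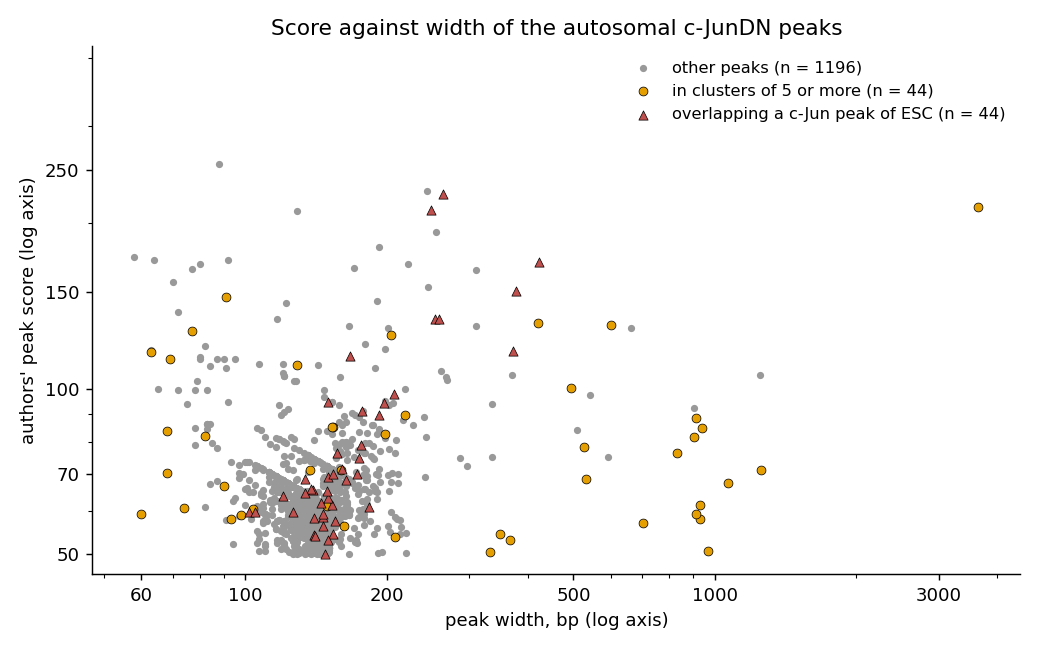
Authors' score against width in bp of each autosomal c-JunDN peak, both on log axes; orange circles are the 44 peaks in clusters of 5 or more, red triangles the 44 peaks that overlap a c-Jun peak of ESC, grey dots the others. The cloud has 2 arms of high scores, one towards widths under 100 bp and one towards widths over 175 bp. The 58 peaks under 100 bp hold no red triangle, and the share of red triangles over all peaks is 3.43%.

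The highest score, 256.12, belonged to a peak of 88 bp at chr17:13744767-13744854. A second peak of that neighbourhood, chr17:13743571-13743699, ranked sixth with 210.08. The peak at chr17:87970990-87971233 had a score of 229.08 with no other peak within 10 kb. Next came chr4:140255514-140255776 with 226.08, chr11:3041825-3045467 with 213.73 and chr7:7252218-7252465 with 211.02. The other 4 of the 10 highest were chr6:30754828-30755082 (192.81), chr4:145135780-145135972 (180.98), chr15:103106557-103106614 (173.26) and chr10:57686716-57686807 (171.14). These 10 peaks lay on 7 chromosomes, 3 of them were under 100 bp wide and 3 were in clusters. The score of 171.14 was shared by a peak of 64 bp at chr14:9119183-9119246.

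Width beyond 500 bp was confined to 3 chromosomes. Of 21 such peaks, 16 lay on chromosome 11, 4 on chromosome 17 and 1 on chromosome 4, and all 21 had another peak within 10 kb. The widest, at 3643 bp, was chr11:3041825-3045467, the fourth by score. It was followed by chr11:3070511-3071763 with 1253 bp, chr17:35643122-35644372 with 1251 bp, chr11:3052257-3053323 with 1067 bp and chr11:3054778-3055746 with 969 bp. The scores of these last 4 were 71.05, 105.74, 67.42 and 50.69.

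Peaks were found on all 19 autosomes, from 24 on chromosome 19 to 122 on chromosome 1. Chromosome 11 held 102 and chromosome 4 held 101. Chromosome lengths of mm9 were not used here, so density is given per Mb up to the last peak of either list. It ranged from 0.381 per Mb on chromosome 7 to 0.840 per Mb on chromosome 11, with a median of 0.462. Without the 23 peaks of its largest cluster, chromosome 11 fell to 0.650 per Mb, and chromosome 17 was then the highest at 0.738. The c-Jun peaks of ESC ranked some chromosomes alike and others otherwise. They were dense on chromosomes 11 and 17 too, at 1.76 and 1.43 per Mb against a median of 1.24. Their highest density was on chromosome 19, at 1.84 per Mb, where c-JunDN peaks stood at 0.391. Chromosome 19 had 21.2 c-JunDN peaks for every 100 c-Jun peaks, chromosome 15 had 25.5, chromosome 14 had 54.5 and chromosome 1 had 56.5. The score and width of a typical peak varied little by chromosome, with medians from 58.68 (chromosome 7) to 65.96 (chromosome 10) and from 139 to 146 bp.

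**Figure D3:**
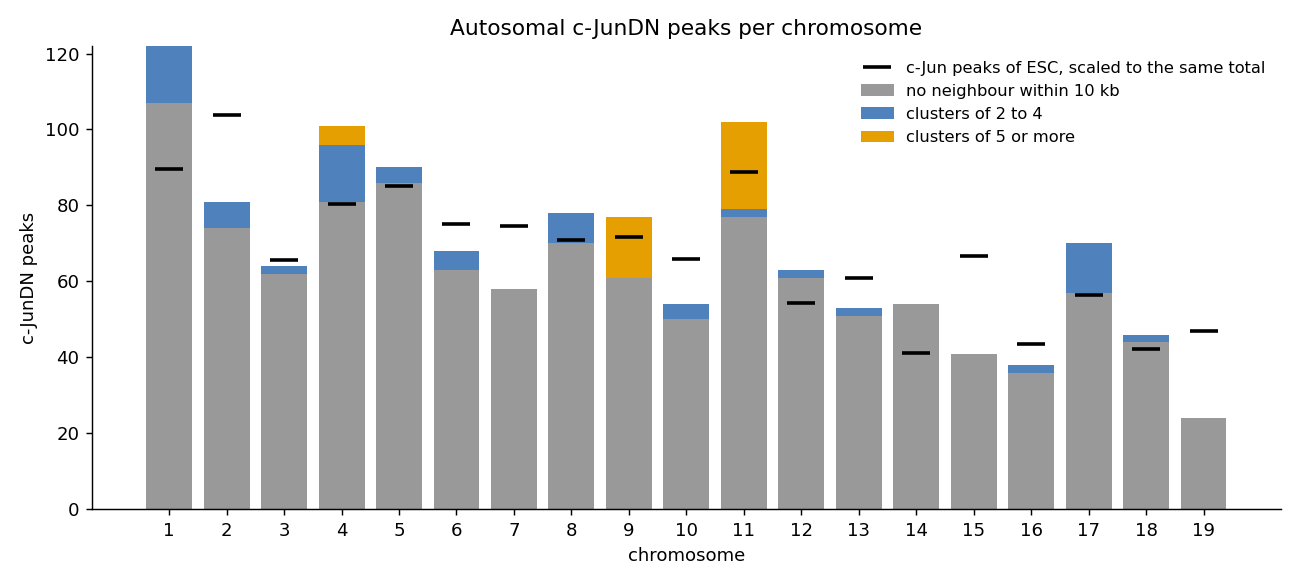
Number of c-JunDN peaks on each autosome, divided into peaks with no neighbour within 10 kb (grey), peaks in clusters of 2 to 4 (blue) and of 5 or more (orange); black dashes give the c-Jun peaks of ESC scaled to the same total. Chromosomes 1 and 4 are among those above the dash, and chromosomes 2, 7, 15 and 19 among those below it; the orange peaks lie on chromosomes 4, 9 and 11.

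Most c-JunDN peaks stood alone. Over the 1265 pairs of neighbours on a chromosome the median gap was 0.941 Mb, with quartiles of 271 kb and 2.39 Mb, and 661 gaps (52.3%) were at most 1 Mb. The longest stretch without a peak, 21.99 Mb, lay on chromosome 16 between a peak ending at 62895959 and one starting at 84882742. A cluster is defined here as 2 or more peaks with gaps of at most 10 kb. By that definition 1157 peaks (90.1%) were single, and 127 peaks (9.89%, exact 95% interval 8.31 to 11.7) formed 39 clusters on 15 chromosomes. Of these clusters 25 had 2 peaks, 7 had 3, 3 had 4, and the remaining 4 had 5, 6, 10 and 23. In the c-Jun list of ESC 439 peaks (14.2%) were clustered, in 200 clusters of at most 5 peaks, with a median gap of 241 kb in the denser list. The c-JunDN list had the smaller share of its peaks in clusters and the clusters with the most peaks. The same limit of 10 kb was used for both lists, which by itself puts more peaks of the denser list into clusters.

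**Figure D4:**
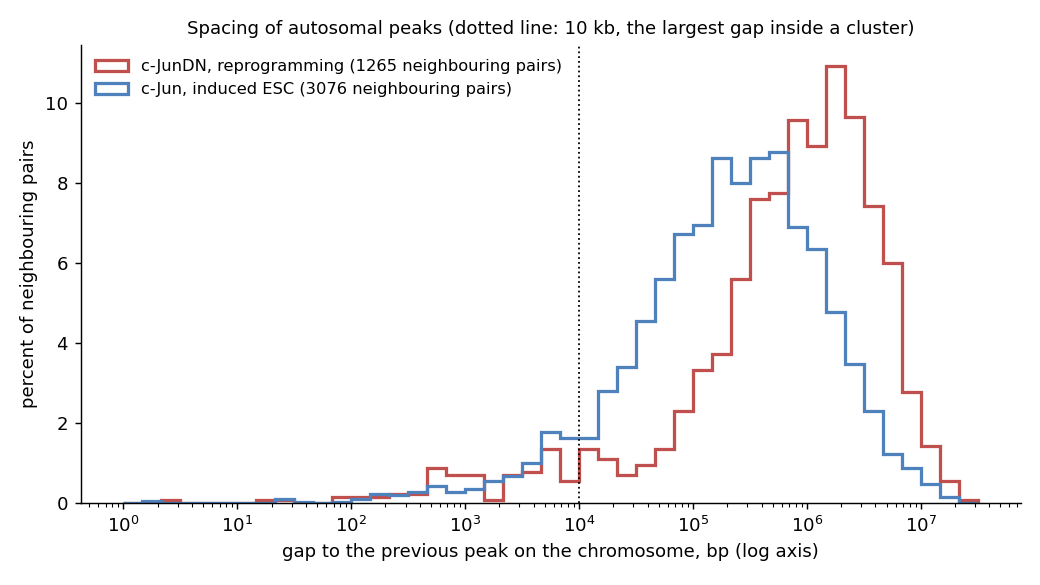
Gap in bp from each autosomal peak to the one before it on the chromosome (log axis), as a percentage of neighbouring pairs, for c-JunDN (red, 1265 pairs) and c-Jun of ESC (blue, 3076 pairs). The main c-JunDN hump lies near 1 Mb, to the right of the c-Jun hump, and a low tail of short gaps extends left of the dotted line at 10 kb.

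The largest cluster held 23 peaks in 75.6 kb at chr11:3004689-3080286. Its peaks had scores of 50.69 to 213.73 (median 71.05) and widths of 69 to 3643 bp (median 600 bp), and they covered 22.1% of the span. A further pair at chr11:3098861-3100009 followed within 20 kb. The second cluster, chr9:3000850-3035105, held 10 peaks of another shape. They were 60 to 160 bp wide (median 75.5 bp), scored 59.01 to 146.57 and covered 2.46% of 34.3 kb. The third, of 6 peaks, lay at the other end of the same chromosome, at chr9:123832861-123844489, with scores of 53.68 to 125.05. The fourth, chr4:3008013-3018300, held 5 peaks with widths of 93 to 910 bp and scores of 50.48 to 88.41.

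The fifth cluster had the highest scores of any. Its 4 peaks at chr17:13743571-13746041, a span of 2.47 kb, scored 210.08, 256.12, 164.20 and 87.16 in order along the chromosome. Another cluster of 4, chr17:35635734-35652021, was made of wide peaks of 664, 592, 1251 and 903 bp with scores of 129.12, 75.23, 105.74 and 92.23. It held all 4 peaks wider than 500 bp on chromosome 17. Whether this region lies on a locus that the reporter transgene or an introduced factor also carries was not tested, since mm9 gene positions were not used here. None of the 7 clusters of 4 or more peaks had a c-Jun peak of ESC anywhere in its span. The longest of these spans was 75.6 kb, while the c-Jun peaks had a median gap of 241 kb. Spans this short would often hold no c-Jun peak, so the absence is not read as a trait of the clusters.

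Many clustered peaks lay at the low-coordinate end of a chromosome, which in the mouse is the end next to the centromere. Below 3.2 Mb, a limit set after the positions were seen, there were 48 c-JunDN peaks (3.74%) on 6 chromosomes, with 25 on chromosome 11, 10 on chromosome 9, 6 on chromosome 4, 4 on chromosome 17, 2 on chromosome 18 and 1 on chromosome 6. Of these 48 peaks 45 were in clusters. The c-Jun list of ESC had no peak below that limit, but its lowest position, 3248852, lay close above it. The lowest c-JunDN peak on an autosome started at 3000850, and neither list had an autosomal peak below it. At a median over chromosomes of 1.24 c-Jun peaks per Mb, few would be listed between that position and 3.2 Mb in any case. Whether repeated sequence or the number of copies of these regions had a part in the peaks was not tested.

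Looser grouping brought out dense stretches elsewhere. Of the 417 windows of 5 Mb with at least 1 peak, 199 held 1 or 2 peaks and 6 held 10 or more. The window of chromosome 4 from 145000001 held 22 peaks, second to the 26 of the window that begins chromosome 11. With gaps of up to 100 kb, 9 peaks joined at chr4:144998740-145164141 and 7 at chr4:146778723-146913115. At chr8:19921582-20004264 there were 7 peaks of 80 to 121 bp with scores of 67.17 to 114.05. On chromosome 1, 5 peaks joined at chr1:85227680-85277179 and 4 more at chr1:85076354-85108367.

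Clustered peaks scored higher than single ones. The median score was 61.19 for the 1157 single peaks (95% interval of the median 60.84 to 61.62), 74.34 for the 83 peaks in clusters of 2 to 4 (68.13 to 84.23) and 71.14 for the 44 in clusters of 5 or more (61.52 to 83.92). The share of peaks in clusters was 6.61% among scores under 55 and 44.9% among scores of 100 or more, 31 of 69 peaks.

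The names of the peaks carry running numbers up to 1516, so 176 numbers have no row in the list, while the c-Jun list is numbered without a gap. Of neighbours within 10 kb, 20 of 88 pairs (22.7%) had a skipped number between them, against 51 of 1177 pairs (4.33%) farther apart. Within the 10-peak cluster of chromosome 9, 26 numbers were skipped, with a skip between every pair of neighbours. This cluster alone therefore supplies a large part of the 20 pairs. What the skipped numbers stood for is not given in the sources used here, and the clusters may be described only in part.

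A minority of the c-JunDN peaks coincided with c-Jun peaks of ESC. With 1 bp or more counted as overlap, 44 of 1284 c-JunDN peaks did so (3.43%, exact 95% interval 2.50 to 4.57), and they met 43 of 3095 c-Jun peaks (1.39%, 1.01 to 1.87). The intervals cover counting error only. The c-Jun peaks covered 1347524 bp of the autosomes, at a median over chromosomes of 1.24 peaks per Mb. The share that placement alone would give was not computed, so 3.43% is not read as low or high. The lists differ in cell type, in the protein expressed and in width, and these cannot be told apart. Of the 44 peaks, 43 lay wholly inside the c-Jun peak, and the centres were a median of 42.2 bp apart, at most 247 bp. The overlapping peaks had a median width of 153.5 bp and the c-Jun peaks they met one of 462 bp. These widths and the overlap rule limit the offsets in advance. Containment and the largest offset are therefore not read as closeness. With a wider search, 50 peaks had a c-Jun peak within 1 kb, 69 (5.37%) within 5 kb, 90 (7.01%) within 10 kb and 249 (19.4%) within 50 kb. The 1240 peaks without overlap were a median of 234 kb from the nearest c-Jun peak, with quartiles of 84.8 and 569 kb.

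The overlapping share was larger among high scores. It was 2.07% (5 of 242) under a score of 55 and 11.6% (8 of 69, exact 95% interval 5.14 to 21.6) at 100 or more. Among the 100 highest scores 13 peaks overlapped. The median score was 66.92 for overlapping peaks (95% interval of the median 62.06 to 74.84) and 61.41 for the others (60.98 to 61.84). Overlapping peaks were a median of 153.5 bp wide (148 to 167 bp), against 143 bp (142 to 144 bp). None of the 58 peaks under 100 bp overlapped a c-Jun peak. By a limit of 3 peaks, that allows a share of up to 5.17%, and the exact 2-sided 95% interval ended at 6.16%. None of the 44 peaks in clusters of 5 or more overlapped one either. That allows up to 6.82% by the same limit, and the exact 2-sided 95% interval ended at 8.04%. The share over all peaks, 3.43%, lies below all of these limits, so neither 0 is read as a trait of these peaks. The c-Jun peaks that were met also stood high in their own list, with a median score of 90.67 against 66.83 for the rest, and 32 of the 43 were above the list's median. They included 3 of the 10 highest c-Jun scores. Over the 44 pairs the rank correlation of the 2 scores was 0.34 (Spearman), as a description of peaks that share their libraries.

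**Figure D5:**
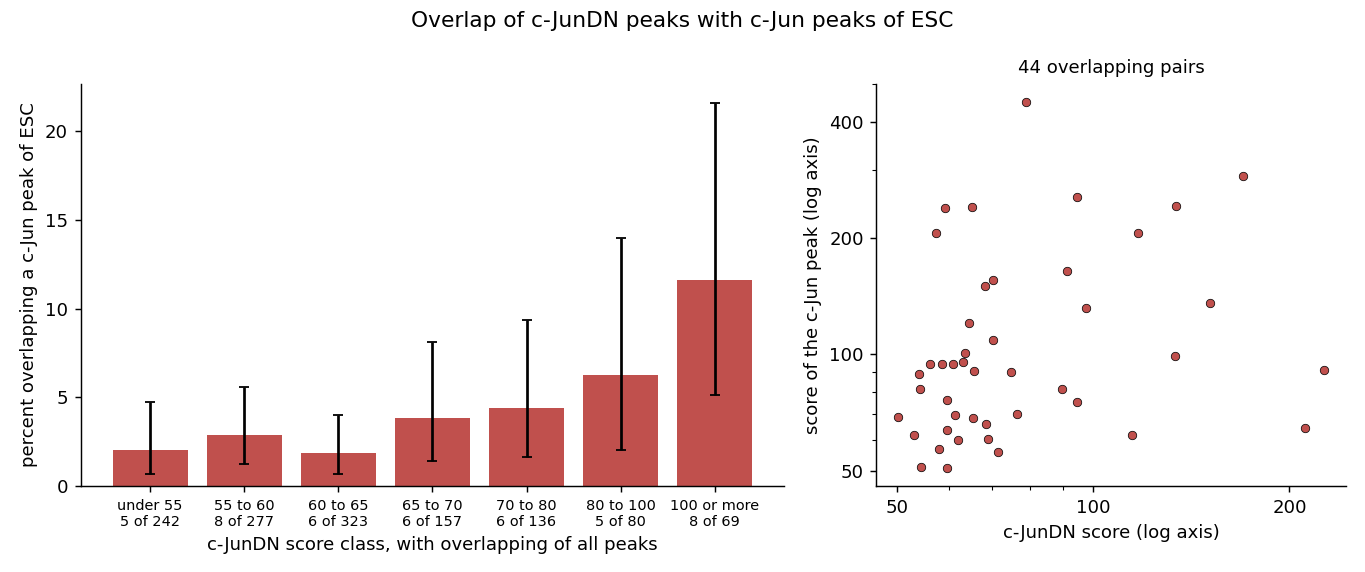
Left, percentage of c-JunDN peaks in each score class that overlap a c-Jun peak of ESC by at least 1 bp, with exact 95% binomial intervals as error bars and counts below the bars; right, the 2 scores of the 44 overlapping pairs on log axes. The share goes from 2.07% under a score of 55 to 11.6% at 100 or more, and the intervals of neighbouring classes overlap.

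The overlapping peak with the highest score, chr4:140255514-140255776 (226.08), met a c-Jun peak of 91.33, and the next, chr7:7252218-7252465 (211.02), one of 64.50, below the median of its list. At chr15:61820902-61821323 the c-JunDN peak was 422 bp wide and scored 169.92, inside a c-Jun peak of 289.57. For this interval too, a match to introduced DNA was not tested. At chr15:95106969-95107345 the scores were 150.84 and 135.50. The only place where 3 neighbouring peaks of both lists coincided was chr1:153318818-153323453. Its c-JunDN peaks scored 68.24, 133.98 and 94.38 in order, and the c-Jun peaks 150.28, 242.32 and 256.08. The other 5 of the 10 highest overlapping peaks were chr19:61302170-61302428 (133.65), chr13:45719270-45719641 (117.32), chr1:88367392-88367558 (114.89), chr4:125780426-125780632 (97.66) and chr2:13495196-13495345 (94.56). On chromosome 13 a second c-JunDN peak, 3 bp away, lay in the same c-Jun peak. The highest c-Jun score met, 449.92 at chr17:66310715-66311658, was paired with a c-JunDN peak of 78.90.

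The highest c-JunDN peaks without overlap were 54.3 kb or more from any c-Jun peak in 9 of the 10 cases. The peaks at chr17:13744767-13744854 and chr17:87970990-87971233 were 130 and 98.3 kb away, chr6:30754828-30755082 was 176 kb away and chr5:105356904-105357125 (168.64) 709 kb away. The closest of the 10 was chr4:145135780-145135972, at 7.59 kb. By chromosome, the overlapping share was highest on chromosome 15, with 4 of 41 peaks (9.76%, exact 95% interval 2.72 to 23.1). On chromosome 1 it was 5.74% (7 of 122), with 3 of the 7 in 1 cluster. Chromosomes 14, 16 and 18, with 54, 38 and 46 peaks, had no overlap. The exact interval of each of the 19 autosomes included the overall 3.43%.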

How the data were processed

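The authors deposited 2 peak lists on mm9 with a score per peak, whose scale is not stated. Peak names begin with MACS, and bcl2fastq 2.15.0.4 and Bowtie2 2.2.3 are named in the submitters' processing notes. The use of the ESC input sample in calling, and any filter on repeats or duplicate reads, are not given in the sources used here, and read depth is unknown. The RNA values are expected counts that the authors deposited; the submitters' processing notes name RSEM 1.1.21. They were rounded here and divided by the totals of 2976932 (KSM, that is Klf4, Sox2 and c-Myc, with c-JunDN) and 2556709 (KSM with DR).

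Positions, gaps, clusters and overlaps were computed in Python 3.11.15 with pandas 2.3.3 and scipy 1.17.1, after the functions were checked on simulated lists. Intervals of shares are exact binomial, and intervals of medians come from order statistics. Each list is 1 library, so no test was made. Named peaks are the 10 highest scores, the 5 widest, the 5 largest clusters, and the 10 highest with and without overlap. Any other peak or looser group in the text was picked with its values in view. The peaks, marker lists and settings were chosen with earlier results of these data known. Planned work on genes near peaks, their RNA and AP-1 motifs needed mm9 annotation or sequence and was not run.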

Additional observations from a re-analysis of the deposited data

Results flagged for a closer look

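Peaks on chromosomes X and Y are given here because the comparisons above did not use them. Their counts are above the 3 peaks taken as the limit of a count of 0, a low bar that shows only that peaks are listed there. Chromosome X had 35 c-JunDN peaks, with a median score of 84.65, a median width of 113 bp and 21 peaks in clusters, the largest of 9 peaks. The c-Jun list of ESC had 5 peaks on chromosome X, and 1 c-JunDN peak overlapped one of them. Chromosome Y had 21 c-JunDN peaks, with a median score of 75.61 and a median width of 199 bp. Of these 19 were in clusters, the largest of 10 peaks, and the c-Jun list had 0 peaks there. The sex of the cells is not given in the labels of either sample, and its part in these counts was not tested.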

How the results depend on the processing

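The number of autosomal peaks, 1284, became 655 with scores at or above the median and 69 with scores of 100 or more. The share in clusters, 9.89%, was 4.83%, 8.10%, 12.9%, 16.5% and 22.4% with largest gaps of 1, 5, 20, 50 and 100 kb, as the wider definition implies. It was 27.5% when clusters were formed from scores of 100 or more alone, and 12.5% with all chromosomes. It was 6.69% without clusters of 5 or more, 7.26% without peaks under 100 bp and 6.63% without peaks starting below 3.2 Mb, 3 alternatives chosen after the data were seen. The share overlapping a c-Jun peak, 3.43%, was 11.6% with scores of 100 or more, 0.857% where 50% of both peaks had to be shared (11 peaks), and 5.37% with peaks widened by 5 kb. It stayed between 3.35% and 4.43% under the other 8 alternatives run. The median score stayed between 61.19 and 61.66 and the median width between 143 and 144 bp under the 4 alternatives run for each. Alternatives on gene starts, RNA of nearby genes and motifs were not run, since they need mm9 annotation or sequence. No paired analysis was possible because each list is 1 library.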
